A study of Callithrix jacchus with 71 samples.

Results

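This report follows p53 target and arrest genes in single marmoset cells. The 8 genes listed were CDKN1A, BTG2, MDM2, GADD45A, CCNG1, SESN1, PHLDA3 and BAX, and 7 of them were among the 23561 named genes of the table, while MDM2 was not analysed here. They were chosen as p53 targets after CDKN1A and BTG2 had been seen at high values in part of the induced neural stem-like cells (iNSLCs) of this table, so their levels in these cells are given as a description, with no test. Expression was measured by RamDA-seq, a full-length total RNA method, in 71 cells of the common marmoset (Callithrix jacchus). There were 65 iNSLCs at passage 1 from the line E01F A-2, which was made from E01F fibroblasts with episomal vectors, beside 4 embryonic stem cells (ESCs) of the line No.40, 1 induced pluripotent stem cell (iPSC) of the line E01F A-2-2 and 1 fibroblast of the parent line E01F. PSC cells (pluripotent stem cells) stands below for the ESCs together with the iPSC, 5 in number.

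All cells of a group came from 1 named source, and nothing in the labels says that they came from separate cultures. A mean ± SD over cells is therefore the spread between cells of 1 culture, and no p-value between groups could be given. The vectors that made the iNSLCs carried a dominant-negative mouse p53 fragment beside reprogramming factors, and the study's methods describe passage 1 iNSLCs as still holding vector. How much of the fragment each cell made was not measured here.

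p53 is a transcription factor that is held at a low level by the ubiquitin ligase MDM2 and is stabilised when DNA is damaged or a cell is stressed. It then activates genes that stop the cell cycle, repair damage, restrain growth signals or start cell death, and some of them, MDM2 among them, limit p53 in turn. p53 is also known as a barrier to reprogramming, and vectors that dampen it are in common use. Most of these genes also answer to other factors, so a high level does not by itself measure p53 activity. BTG2, for example, belongs to the immediate early genes and marks neural progenitors that are about to make neurons.

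The iNSLCs held 82268 to 695241 reads assigned to genes (median 268128), the PSC cells 134328 to 1003718 and the fibroblast 1294430. Values are the authors' normalized counts, which are reads divided by 1 factor per cell, and 1 read was worth 0.441 to 2.84 in an iNSLC. Of the marker lists, 9 of 10 neural stem cell markers were at least 2-fold higher in the iNSLCs and 10 of 10 pluripotency markers at least 2-fold higher in the PSC cells. Over all genes with a mean of at least 1 in these cells, the shares were 17.4% and 24.4%. The summed fibroblast markers were 28578 in the fibroblast and 0 to 1073 in the iNSLCs. That sum had a rho of -0.13 with CDKN1A and of 0.02 with BTG2 over the iNSLCs, and the summed pluripotency markers of 0.04 and 0.02 (Spearman's rank correlation). Cell numbers in the labels fell into iNSLCs numbered 56 or below (27 cells) and 57 or above (38 cells), which differed in depth (median 357910 against 208746 reads), and values within each set are given beside the pooled ones. ESC 11 stood apart with 134328 reads and 7126 detected genes, against at least 15122 in the other ESCs.

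Among the genes of cell cycle arrest, CDKN1A encodes p21, an inhibitor of cyclin-dependent kinases. Its normalized count in the iNSLCs ran from 0 to 415 with a median of 79.0. In the PSC cells it was 0 in ESC 10, ESC 11, ESC 12 and the iPSC and 15.8 in ESC 14, and it was 238 in the fibroblast. The distribution was wide, since 9 of 65 iNSLCs had no read while 47 lay above the highest PSC cell and 5 above the fibroblast. CDKN1A reads were found in 86.2% of iNSLCs (95% exact Clopper-Pearson interval 75.3 to 93.5%, which covers counting error only) and in 1 of 5 PSC cells. The mean was 98.2 ± 99.6 (SD, n = 65 cells) in the iNSLCs and 3.17 ± 7.08 (SD, n = 5 cells) in the PSC cells, a 31.0-fold difference, or 4.57 on the log2(mean + 1) scale. That size rested on ESC 14, which held all 19 reads of the PSC cells. Without it the iNSLC mean was at least 115-fold higher, taking 3 reads over the remaining 4 PSC cells as the limit that a count of 0 allows.

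BTG2 encodes an antiproliferative protein of the BTG/TOB family, and its normalized count ran from 0 to 340 in the iNSLCs (median 96.5). It was 14.2 in ESC 10, 0 in ESC 11, 0.540 in ESC 12, 14.2 in ESC 14, 17.1 in the iPSC and 18.6 in the fibroblast. Unlike CDKN1A, BTG2 was low in the fibroblast as well as in the PSC cells, and 54 of 65 iNSLCs exceeded all 6 of these cells. The mean was 103.8 ± 81.3 (SD, n = 65 cells) in the iNSLCs against 9.19 ± 8.24 (SD, n = 5 cells) in the PSC cells, an 11.3-fold difference. BTG2 was read in 63 of 65 iNSLCs (96.9%, interval 89.3 to 99.6%).

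GADD45A, a growth arrest and DNA damage gene, ran from 0 to 92.1 in the iNSLCs with a median of 23.9. Its values were 9.31, 0, 3.24 and 4.17 in ESC 10, 11, 12 and 14, 4.27 in the iPSC and 32.8 in the fibroblast. The fibroblast thus lay inside the iNSLC range and 45 iNSLCs lay above every PSC cell. The iNSLC mean of 32.3 ± 29.4 (SD, n = 65 cells) was 7.69-fold that of the PSC cells.

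CCNG1 encodes cyclin G1, which recruits a phosphatase to MDM2 and despite its name does not drive the cycle as the classical cyclins do. It was the one gene of the 7 with a read in every iNSLC, from 46.7 to 801 with a median of 324. In the ESCs its values were 27.9, 17.9, 97.2 and 28.3, in the iPSC 60.9 and in the fibroblast 244. All but 2 iNSLCs (63 of 65) were above the highest PSC cell, ESC 12. The mean of 337 ± 168 (SD, n = 65 cells) was 7.25-fold the PSC mean. It was higher in the iNSLCs numbered 56 or below (430 ± 189, SD, n = 27 cells) than in those numbered 57 or above (270 ± 115, SD, n = 38 cells), and both were above the PSC mean of 46.4. CCNG1 also had a rho of -0.30 with the number of genes detected in a cell, where the other 6 genes lay between -0.07 and 0.12, and the part of depth in this was not tested.

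Among the genes that restrain growth signals, SESN1 encodes sestrin 1, which acts against mTORC1 signalling. It ran from 0 to 69.7 (median 9.54) in the iNSLCs, and was 5.26, 0, 1.62 and 4.17 in the 4 ESCs, 0 in the iPSC and 2.83 in the fibroblast. Although the iNSLC mean of 14.0 ± 15.2 (SD, n = 65 cells) was 6.33-fold that of the PSC cells, the groups overlapped, with 41 iNSLCs above the highest PSC cell. PHLDA3, whose protein competes with AKT for membrane lipids, ran from 0 to 104 (median 22.6). It was 2.02, 12.8, 2.70 and 7.50 in the ESCs, 0 in the iPSC and 31.6 in the fibroblast. The mean of 28.6 ± 27.4 (SD, n = 65 cells) was 5.72-fold the PSC mean, and 42 iNSLCs exceeded every PSC cell. Like CCNG1, PHLDA3 differed between the sets of cell numbers, but in the other direction, at 21.3 ± 18.2 (SD, n = 27 cells) and 33.7 ± 31.7 (SD, n = 38 cells). In the RefSeq annotation, SESN1 overlaps ARMC2 and PHLDA3 overlaps TNNI1. ARMC2 had a mean of 3.59 in the iNSLCs and 23.7 in the PSC cells and a rho of 0.07 with SESN1, and TNNI1 had means of 5.10 and 1.54 and a rho of 0.44 with PHLDA3. The part of these partners was not tested, and whether the counting used strand is not given in the sources used here.

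BAX, the pore-forming member of the BCL2 family that opens mitochondria in apoptosis, stood apart from the other 6 genes. In the iNSLCs it ran from 0 to 38.7 (median 6.12), in the ESCs it was 15.0, 0, 11.9 and 5.83, in the iPSC 8.55 and in the fibroblast 12.9. The groups overlapped throughout, and 16 iNSLCs lay above the highest PSC cell. The mean was 9.29 ± 9.85 (SD, n = 65 cells) against 8.25 ± 5.75 (SD, n = 5 cells), a log2 difference of 0.15 that changed sign with medians in place of means (-0.42), without ESC 11 (-0.14) and in the iNSLCs numbered 56 or below (-0.31). BAX was also the least covered of the 7, with a median of 6 reads per iNSLC, and its mean was 6.44 ± 7.03 (SD, n = 27 cells) in the iNSLCs numbered 56 or below and 11.3 ± 11.1 (SD, n = 38 cells) in those numbered 57 or above. In the same order the means were 104 and 94.2 for CDKN1A, 86.5 and 116 for BTG2, 26.0 and 36.8 for GADD45A and 15.5 and 12.9 for SESN1. Of the BCL2 family list, 9 genes had a mean of at least 1 over the 70 cells and none of them was 2-fold apart. Over all genes with such a mean, 17.4% were at least 2-fold higher in the iNSLCs and 24.4% in the PSC cells. BIK, which has a mean of at least 1 in the PSC cells alone, was higher there (0.239 against 2.96). The list did not hold the BH3-only genes BBC3 and PMAIP1, which are given with the other p53 targets below and were more than 2-fold apart.

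In all, 6 of the 7 genes were at least 2-fold higher in the iNSLC mean than in the PSC mean, and none was 2-fold lower. Of 14045 genes whose mean over the 70 iNSLCs and PSC cells was at least 1, 17.4% were at least 2-fold higher in the iNSLCs and 24.4% at least 2-fold higher in the PSC cells, and the median log2 difference was -0.16. A mean over 70 cells is mostly that of the iNSLCs, and with genes whose mean was at least 1 in either group instead, a filter added after the values were seen, the shares were 15.2% and 30.4% of 16269 genes. The 7 genes were picked with this contrast known, so nothing is read from the comparison of these shares. With totals made equal between cells, the median over all genes shifted by 0.25 on the log2 scale and 6 of 7 genes were still at least 2-fold higher.

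**Figure D1:**
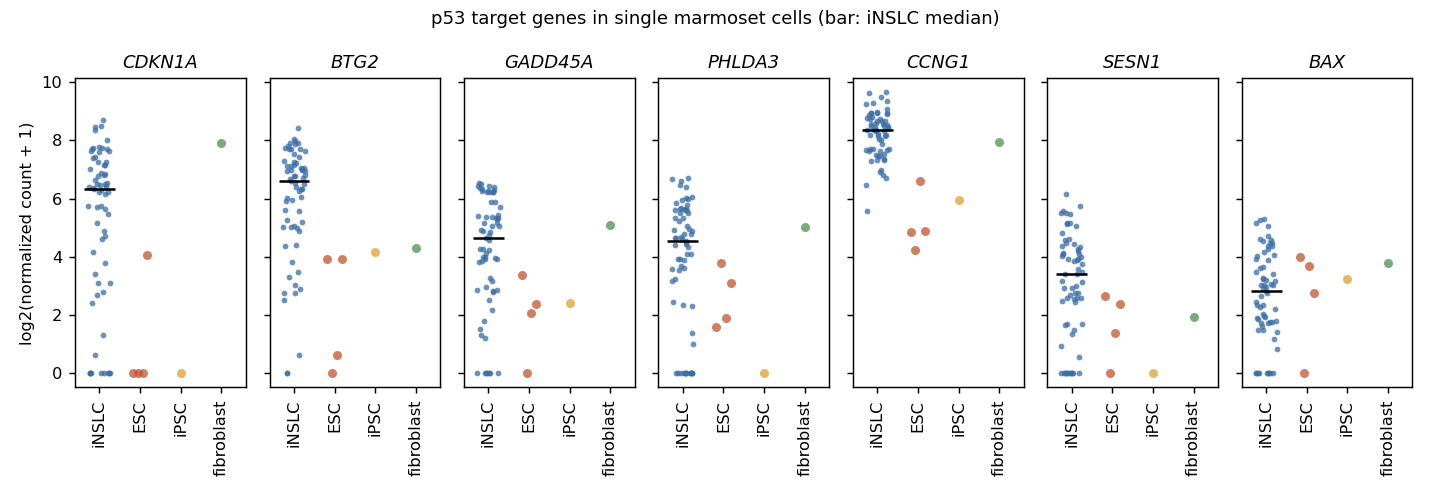
Each point is 1 cell, with its log2(normalized count + 1) on the y axis for each of the 7 genes, grouped on the x axis as 65 iNSLCs, 4 ESCs, 1 iPSC and 1 fibroblast, with a bar at the iNSLC median. CDKN1A is at 0 in all PSC cells but ESC 14, CCNG1 lies above every PSC cell in 63 iNSLCs, and BAX overlaps in all groups.

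Within the iNSLCs the 7 genes varied together, CCNG1 least. All 7 were detected in 44 cells, while 5 cells held reads of no more than 3. CDKN1A and BTG2 had a Spearman's rho of 0.73 over 65 iNSLCs (Pearson's r of 0.74 on log2 values), and it was 0.73 in each of the 2 sets of cell numbers. These cells share a line, a passage and a normalization, so rho is a description of 1 culture and carries no p-value. Taking a normalized count of 100, a level chosen after the values were seen, 21 iNSLCs had both genes at or above it, 30 neither, 11 BTG2 alone and 3 CDKN1A alone.

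PHLDA3 was the closest companion of both. Its rho was 0.87 with BTG2, the highest of the 21 pairs, and 0.76 with CDKN1A. GADD45A came next, at 0.69 with CDKN1A and 0.73 with BTG2. SESN1 had a rho of 0.58 and BAX of 0.53 with CDKN1A, and of 0.49 and 0.54 with BTG2. CCNG1 stood apart here, with a rho between 0.24 and 0.34 in its 6 pairs, against 0.42 to 0.87 in the 15 pairs without it. The median over all 21 pairs was 0.54, and it was 0.57 in the cells numbered 56 or below and 0.51 in those numbered 57 or above.

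Across the 10508 other genes read in at least 50% of iNSLCs, a rho of at least 0.5 with CDKN1A was rare, at 0.485% (51 genes), and 5 of the other 6 genes reached it. With BTG2 it was 0.542% (57 genes), and 4 of 6 reached it. The threshold was set after rho had been seen. The median gene had a rho of 0.00 with CDKN1A and of 0.01 with BTG2. Ranked among all 10508 genes, PHLDA3 was in place 1 and BTG2 in place 2 for CDKN1A, GADD45A in place 8, SESN1 in place 26, BAX in place 43 and CCNG1 in place 390.

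**Figure D2:**
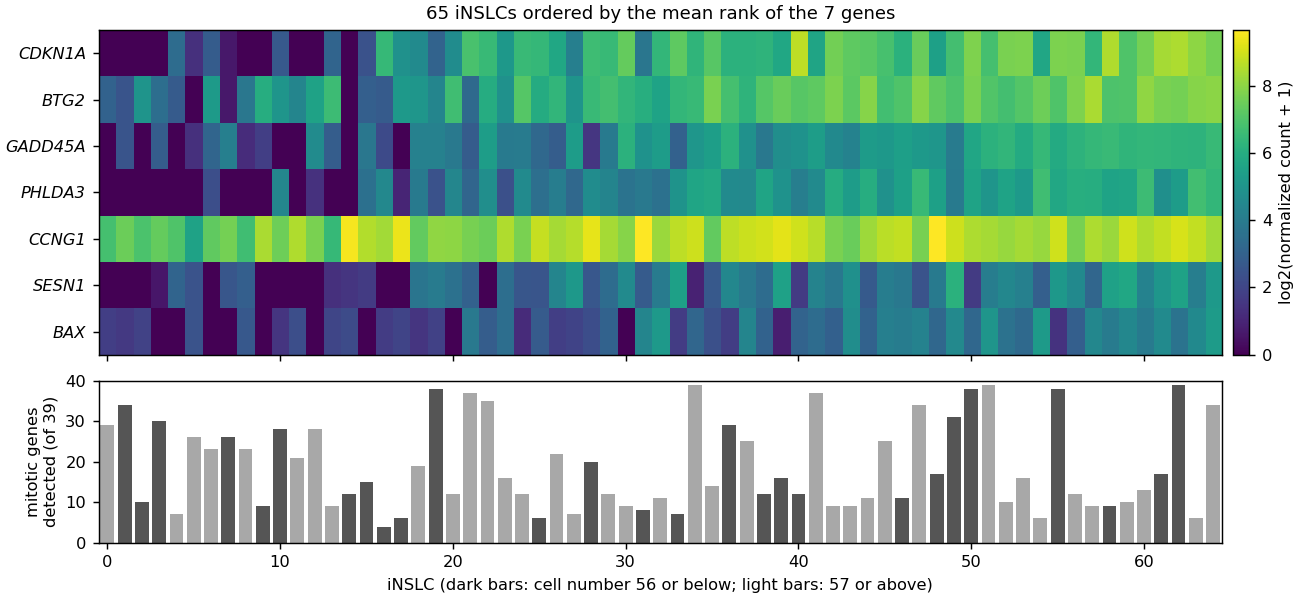
Columns are the 65 iNSLCs ordered by their mean rank over the 7 genes, with colour for log2(normalized count + 1) in the upper panel and the number of detected mitotic genes (of 39) as bars below, dark for cells numbered 56 or below and light for 57 or above. CDKN1A, BTG2, GADD45A and PHLDA3 are at 0 or low in most cells at the left and higher in most cells at the right, CCNG1 is read throughout, and tall mitotic bars occur along the whole order.

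The 9 iNSLCs with no CDKN1A read had lower medians of the other 6 genes. Their BTG2 values ran from 0 to 63.3 with a median of 13.3, against a median of 110 in the 56 iNSLCs with CDKN1A. PHLDA3 was read in 1 of the 9 and in 52 of the 56. CCNG1 had a median of 179 against 326 but ran from 103 to 722, so that it overlapped widely with the other cells, and BAX had a median of 2.42 against 7.20. These 9 cells held 131531 to 598446 reads, with a median of 357910 against 258979 in the other 56. The part of depth in the missing reads was not tested. Of the 2 iNSLCs without BTG2, cell 49 had no CDKN1A or PHLDA3 read and cell 62 held 1 CDKN1A read and no PHLDA3. The mean rank of the 7 genes, a summary added after the values were seen, had a rho of 0.05 with the reads of a cell and of 0.02 with its detected genes.

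Genes outside the 7 were ranked by their likeness to CDKN1A among the 5792 with an iNSLC mean of at least 10 that were read in at least 50% of iNSLCs. After PHLDA3 and BTG2 came RPS6KA1 (rho 0.71), which encodes a kinase downstream of ERK, SESN2 (0.71), a sestrin like SESN1, ANKS6 (0.70) and PCGF3 (0.70), then GADD45A and INPP5D (0.68). For BTG2 the order was PHLDA3, TNFRSF10B (0.77), the death receptor DR5, SESN2 (0.74), GADD45A, CDKN1A, INPP5D (0.72), RPS6KA1 (0.70) and BBC3 (0.70), which encodes the BH3-only protein PUMA. The 2 orders shared 5 genes. At the other end YWHAZ, a 14-3-3 protein, had the lowest rho with CDKN1A (-0.46), and SHISA5 had the lowest with BTG2 (-0.50). Next after YWHAZ for CDKN1A came ACTR3 (-0.45) and the replication helicase gene MCM6 (-0.45). Of 16 listed replication genes with a rho, 3 were positive with CDKN1A, TYMS among them (0.67), and the median was -0.14. With BTG2, 2 of the 16 were positive and the median was -0.14. The medians over all genes were 0.00 with CDKN1A and 0.01 with BTG2. The summed level of all 25 listed had a rho of 0.05 with CDKN1A, and TYMS had the highest iNSLC mean of them (130). The number of the 25 detected in a cell had a rho of -0.18 with CDKN1A.

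A list of 30 other p53 targets, 29 of which had a row, was read beside them. Of the 27 with a mean of at least 1 over the 70 cells, 12 were at least 2-fold higher in the iNSLCs. Another 3 were at least 2-fold higher in the PSC cells and 12 lay between, with a median log2 difference of 0.63. Over all genes with such a mean, 17.4% were at least 2-fold higher in the iNSLCs and 24.4% in the PSC cells. TRIM22, which reached a mean of 1 in the PSC cells alone (0.287 against 5.83), was a further one higher there. Higher in the iNSLCs were ZMAT3 (mean 70.6 against 17.5), an RNA-binding regulator of splicing, AEN (136 against 66.0), an apoptosis-enhancing nuclease, GDF15 (20.4 against 0.167, a single read in the PSC cells), a secreted stress cytokine, and BBC3 (15.4 against 1.92). Higher in the PSC cells were PMAIP1 (0.541 against 41.3), which encodes the BH3-only protein NOXA, and FDXR (12.3 against 52.4), a mitochondrial reductase. The 2 BH3-only genes thus differed in opposite directions.

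Over the iNSLCs, 24 of the other p53 targets were read widely enough for a rho. It was at least 0.5 with CDKN1A for 10 of them (median 0.39 over the 24) and with BTG2 for 9 (median 0.44), beside 0.485% and 0.542% of all genes. SESN2, TNFRSF10B, BBC3, DDB2, AEN, EDA2R, PLK2 and PPM1D passed with both genes, and ZMAT3 and GDF15 with CDKN1A alone. These genes were named after their rho was seen. The list was chosen with earlier results of these data known, so nothing is read from these shares either. XPC, FDXR, BTG1 and PERP did not follow, at -0.12, -0.03, -0.11 and -0.18 with CDKN1A. TNFRSF10B and DDB2 varied with CDKN1A between iNSLCs while their means were less than 2-fold from the PSC cells (49.2 against 41.4, and 27.5 against 17.8).

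Relatives of the 7 genes differed among themselves. Of the 16 with a mean of at least 1 over the 70 cells, 10 were at least 2-fold higher in the iNSLCs and 1 in the PSC cells. The shares over all genes with such a mean were 17.4% and 24.4%. Among the 14 with a rho, SESN2, also one of the p53 targets above, was the only one to reach 0.5 with both CDKN1A and BTG2. TOB1 reached it with BTG2 (0.53). Of all genes, 0.485% reached 0.5 with CDKN1A and 0.542% with BTG2. CDKN1B (p27) and CDKN1C (p57), the other inhibitors of the p21 family, were higher in the iNSLCs too (12.5 against 1.83, and 80.0 against 7.64), but had a rho of 0.01 and 0.11 with CDKN1A. MDM4, the relative of MDM2 that binds p53, had means of 51.3 and 51.0 in iNSLCs and PSC cells. GADD45B and GADD45G had means of 5.26 and 5.55, close to the PSC cells. Among 13 immediate early genes with a rho, FOSL1 reached 0.5 with CDKN1A and BTG2 (0.68 and 0.64) and IER5 with CDKN1A (0.51). The all-gene shares of 0.485% and 0.542% apply here too.

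Mitotic genes are transcribed late in the cell cycle, and the number of them detected in a cell, out of 39, was set beside the 7 genes. It ran from 4 to 39 in the iNSLCs with a median of 16, from 25 to 39 in the PSC cells, and was 27 in the fibroblast. CDKN1A had a rho of -0.05 with this count over 65 iNSLCs (Pearson's r of -0.09), and BTG2 of -0.06 (Pearson's r of -0.10). All 7 genes lay between -0.07 (CCNG1) and 0.03 (GADD45A). Values this close to 0 give no order of the arrest genes against the mitotic genes over the cells as a whole.

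The 2 sets of cell numbers differed in sign for most of the 7 genes. CDKN1A had a rho with the mitotic count of 0.05 in the cells numbered 56 or below and of -0.19 in those numbered 57 or above, and BTG2 of 0.20 and -0.24. GADD45A (0.33 and -0.21), SESN1 (0.28 and -0.32) and PHLDA3 (0.14 and -0.18) had the same signs, while CCNG1 (-0.15 and -0.02) and BAX (-0.07 and 0.01) did not. No value here is strong, and the difference between the sets was not tested. The count itself moved with depth, having a rho of 0.39 with the reads and of 0.53 with the detected genes of a cell.

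**Figure D3:**
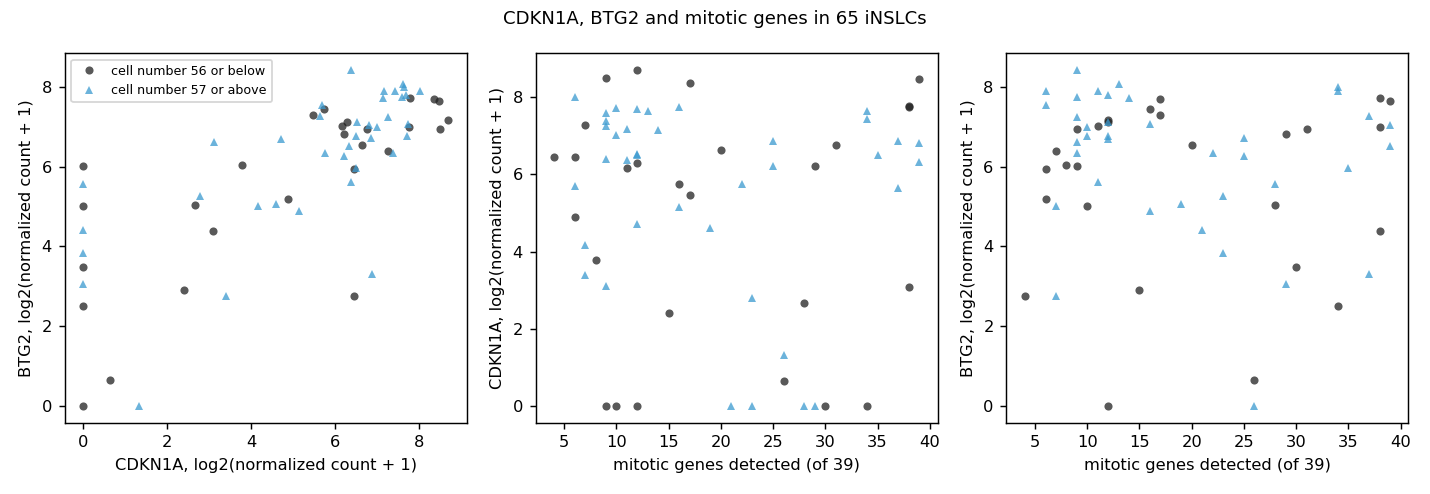
The 65 iNSLCs are plotted as log2(normalized count + 1) of BTG2 against CDKN1A (left), and of CDKN1A (middle) and BTG2 (right) against the number of detected mitotic genes of 39, with circles for cells numbered 56 or below and triangles for 57 or above. BTG2 rises with CDKN1A (rho 0.73), while neither is ordered by the mitotic count (rho -0.05 and -0.06).

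Split by the mitotic count at bounds set after the values were seen, the median CDKN1A was 86.0 in the 19 iNSLCs with 10 or fewer mitotic genes, 62.1 in the 32 with 11 to 29 and 109 in the 14 with 30 or more. For BTG2 the medians were 82.6, 97.2 and 124. Every range held cells at both ends, with a lowest value of at most 5.76 and a highest of at least 253 for either gene. With 20 iNSLCs at 9 to 12 mitotic genes and 6 at 28 to 31, many cells lay close to a bound. Of the 24 iNSLCs with CDKN1A at 100 or more, 8 had at least 30 mitotic genes, as did 8 of the 32 with BTG2 at 100 or more.

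Single cells showed both ends. Cell 47 had all 39 mitotic genes, and its values were 355 for CDKN1A, 197 for BTG2 and 536 for CCNG1. Cell 44, with the highest CDKN1A (415) and a BTG2 of 142, had 12 mitotic genes. Cell 34 had no CDKN1A read, a BTG2 of 4.66 and 34 mitotic genes. The 9 iNSLCs without CDKN1A had a median of 23 mitotic genes, against 14.5 in the other 56. Their median number of reads was also higher (357910 against 258979), and the mitotic count had a rho of 0.39 with reads. The part of depth in this was not tested.

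A search for genes that ran against the mitotic count was made over the whole table. Across 10490 genes outside the mitotic list, 0.276% (29 genes) had a rho of -0.4 or below with it, a threshold also set after rho had been seen. None of the 7 genes was among them, and with a share this small nothing is read from their absence. CDKN1C (-0.52) and CCNG2 (-0.43), the relative of CCNG1, were among the 29. The median CDKN1C was 98.0 in the iNSLCs with 10 or fewer mitotic genes, 24.3 at 11 to 29 and 19.3 at 30 or more. CCNG2 had medians of 54.7, 35.2 and 19.3 in the same order. Both were named after their values were seen, and neither followed CDKN1A (rho 0.11 and -0.03). Of the 14 CDK inhibitors and G1 cell cycle genes with a rho, CDKN1C was the only one at -0.4 or below, and CDKN1B (-0.12), CDKN2A (0.12) and CDKN2D (0.34) were not.

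**Figure D4:**
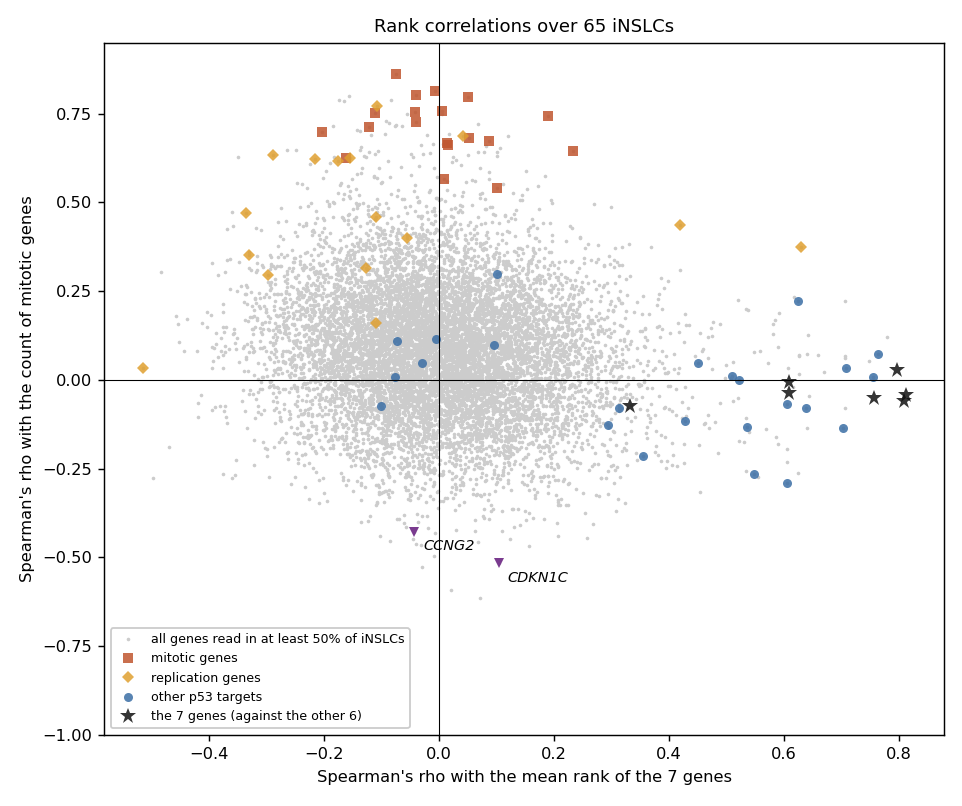
Each point is 1 gene, with Spearman's rho over 65 iNSLCs with the mean rank of the 7 genes (x axis) and with the count of detected mitotic genes (y axis), for genes read in at least 50% of iNSLCs, the mean rank of the 7 being taken without the gene itself for the 7. The 7 genes lie at or right of 0.33 and between -0.07 and 0.03 on the y axis, and CDKN1C and CCNG2 lie at -0.52 and -0.43. Mitotic genes lie at or above 0.54 on the y axis, in part by construction, since each is itself part of the count.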

How the data were processed

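Single cells were sorted into a plate, and cDNA libraries were made by RamDA-seq. The submitters' processing notes list featureCounts 1.5.1, STAR 2.6.0c, Trimmomatic and Seurat 3.0.0, with no role for any. For the genome build, annotation and strand setting, nothing was given in the sources used here. The authors deposited 1 table of normalized read counts (a signal of reads over 1 factor per cell), and every nonzero value was a whole number of reads within 0.02. Groups were taken from the labels. Levels are compared within a gene only, since transcript lengths were not used.

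With 1 culture per group no test was run between groups or on a rho, and Dixon's test served only to flag single ESCs. Means were compared as log2(mean + 1), a gene being 2-fold apart at 1 or more, for genes with a mean over the 70 iNSLCs and PSC cells of 1 or more. Spearman's rho was computed over iNSLCs for genes read in at least 50% of them. Named genes were the 7, the 8 most and 4 least like CDKN1A and BTG2, and list genes with the highest means or a log2 difference of at least 2, while those named for their rho were chosen after it was seen. The genes and lists were chosen with earlier results of these data known. Results of some listed genes are not reported here. Scripts were checked on simulated data (Python 3.11.15, pandas 2.3.3, scipy 1.17.1).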

Additional observations from a re-analysis of the deposited data

Results flagged for a closer look

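Dixon's test was applied to 8 measures of the 4 ESCs, and in 3 of them 1 cell lay far from the rest. For normally distributed values chance gives such a cell in about 1 of 20 groups. Counts that are 0 in most cells, as for CDKN1A here, need not keep that rate. CDKN1A was 15.8 in ESC 14 and 0 in the other 3. CCNG1 was 97.2 in ESC 12 and at most 28.3 in the others. ESC 11 had 25 detected mitotic genes where the others had at least 38, and it was also the ESC with the fewest reads, 134328.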

How the results depend on the processing

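The number of the 7 genes at least 2-fold higher in the iNSLCs was 5 with a pseudocount of 10, where SESN1 fell to 0.97, and 6 under every other setting tried, the added filter of a mean of at least 1 in either group and leaving out each PSC cell included (6 to 6). The log2 difference of CDKN1A ran from 3.04 (pseudocount of 10) to 6.63 (without ESC 14). The rho of CDKN1A with BTG2 ran from 0.73 to 0.74. The rho with the mitotic count was 0.052 in the iNSLCs numbered 56 or below and -0.19 in those numbered 57 or above for CDKN1A, and 0.20 and -0.24 for BTG2, and the cause was not tested. Counting a cell only at a value of at least 10 gave 73.8% of iNSLCs for CDKN1A and 86.2% for BTG2, which follows from the stricter definition. Thinning to 100000 reads kept 62 iNSLCs and left out 3. No paired analysis was possible because each cell is a separate sample and no number is shared between groups. The 4 ESCs, 1 iPSC and 1 fibroblast limit every comparison between groups.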
